A study of Homo sapiens with 4 samples.

Results

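Imprinted genes are expressed mainly from the copy inherited from 1 parent, and many of them set the growth of the embryo, the placenta and the fetal liver. Broadly, genes expressed from the paternal copy, such as IGF2, DLK1, PEG10 and PLAGL1, include many growth promoters, while genes expressed from the maternal copy, such as CDKN1C, H19 and PHLDA2, tend to restrain growth. In liver the best known of them, IGF2, H19 and DLK1, are abundant in the fetal organ, mostly silenced after birth, and often active again in hepatocellular carcinoma. The set described here is 10 such genes (DLK1, MEG3, IGF2, H19, PEG10, SGCE, PEG3, CDKN1C, GRB10 and PLAGL1), found by an exact match of the gene symbol among the 20226 listed genes. Of the 10, 8 had a row, and MEG3 and PEG3 had none in the tables used here. Values are totals over both copies of a gene, so they do not show which parental copy was expressed.

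RNA was sequenced from Huh7 cells in which a hairpin RNA targeted NUP210 (shNUP210, 2 libraries) and from Huh7 cells titled as the hairpin control (shCon, 2 libraries), with a genotype given as wild type. Huh7 is a line grown from a human hepatocellular carcinoma, NUP210 encodes a membrane glycoprotein of the nuclear pore complex, and the labels call all 4 libraries untreated. The comparison asks how expression changed genome-wide when NUP210 was knocked down. Values are TPM, a relative transcript abundance normalised for transcript length and library total, so levels of different genes can be compared, but read depth is not kept. The labels do not state whether replicate libraries were grown as separate cultures. A p-value therefore reflects the scatter among the sequenced libraries alone, and that scatter may be technical.

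NUP210 itself was at 10.1 and 9.85 TPM in both shNUP210 libraries, against 32.8 and 27.3 TPM in the shCon libraries (limma adjusted p = 0.0432, and 0.162 to 0.167 when any 1 library was left out). All 10 hepatocyte marker genes examined had a row, led by AFP at 5988 ± 93.4 TPM in shNUP210 and 5536 ± 121.9 TPM in shCon (SD, n = 2 each). Of the 10, 3 were called lower (APOA1, SERPINA1 and TF) and 0 higher, beside 1.07% and 1.79% of all tested genes. The other 7 were not called and lay in both directions, such as TTR (log2 fold change 0.56) and APOH (-1.13). The median log2 fold change of the 10 was -0.0004. Of 6 fibroblast and stellate cell markers 5 had a row, and their summed level was 64.5 to 85 TPM in shNUP210 and 27 to 33.3 TPM in shCon, with DCN without a row. Of these, COL1A2 passed the test and COL1A1 was at 18.9 and 7.55 TPM in shNUP210 and 1.25 and 3.8 TPM in shCon. The 4 endothelial markers had no row, and of 4 blood cell markers 1 did, CD68, at 13.9 and 2.48 TPM in shNUP210 and 30.7 and 17.9 TPM in shCon. The summed level of neuroendocrine markers was 5.83 and 8.66 TPM in shNUP210 and 6.90 and 9.32 TPM in shCon, and that of germ and placental markers 3.64 and 1.31 TPM in shNUP210 and 6.13 TPM and 0 in shCon. All 4 libraries are titled as Huh7, and whether any other cells were present or had a part in the results below was not tested. Fewer cells of a type and less RNA per cell cannot be told apart in bulk RNA.

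Of the 8 listed genes, 7 reached 5 TPM in at least 2 libraries and were among the 10140 genes tested. After knockdown DLK1 fell, CDKN1C and PEG10 rose, and IGF2, SGCE, GRB10 and PLAGL1 did not pass an adjusted p of 0.05. H19 was near 0 in all libraries. Among all tested genes the share called was 2.86%, with 1.79% called higher and 1.07% called lower. Against these shares, the small counts in the short related lists below say little about a list. The 2 groups did not overlap in 5 of the 7 genes, against 57.3% of all tested genes, so that separation alone says little. Across the tested genes the log2 fold change had a median of +0.23 before any rescaling, and some changes are also given relative to it. Of the 290 calls, 181 were higher and 109 lower, against 78 higher and 250 lower after trimmed-mean scaling. Together the 8 listed genes took 0.112 and 0.109% of TPM in shNUP210 libraries, against 0.12% in each shCon library.

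**Figure D1:**
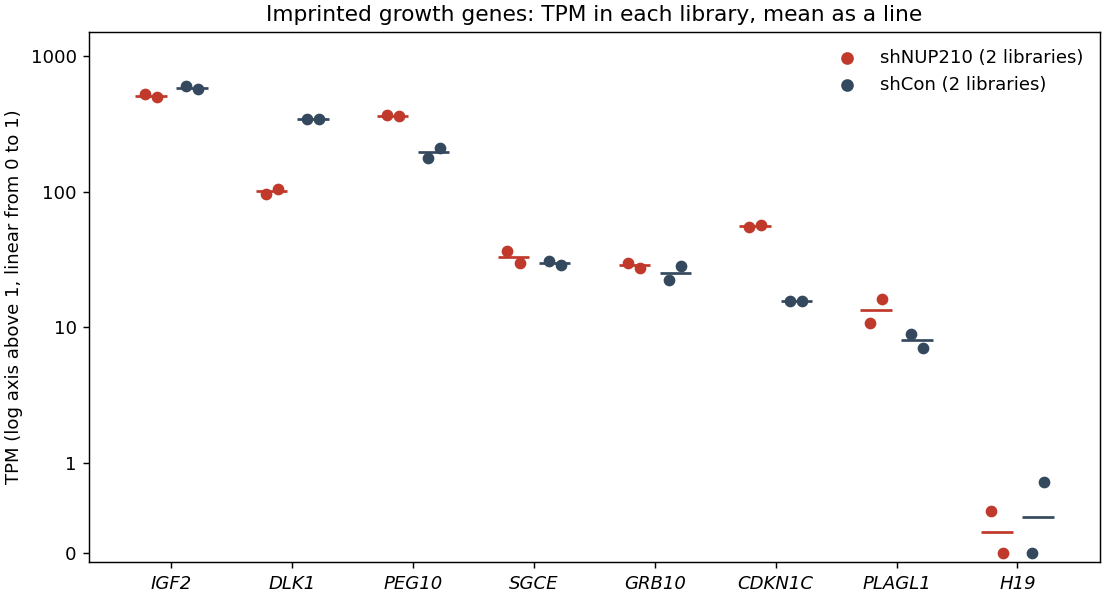
TPM of the 8 listed genes in each library, with gene symbols along the bottom, points for libraries and lines for group means (axis logarithmic above 1 TPM and linear below it). DLK1 sits near 100 TPM in shNUP210 and near 344 TPM in shCon, PEG10 and CDKN1C are higher in shNUP210, and H19 stays under 1 TPM.

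Of the secreted and membrane growth factors of the set, DLK1 was called lower and IGF2 was not called. DLK1 encodes a transmembrane protein with EGF-like repeats, a noncanonical relative of the Notch ligands that is found on hepatoblasts. DLK1 (ENSG00000185559, GRCh38 chromosome 14, 100725705 to 100738224, plus strand, protein-coding) was at 96.5 and 105.2 TPM in both shNUP210 libraries, against 345.8 and 342.1 TPM in the shCon libraries. Both knockdown libraries lay far below both controls, and the spread within each group was small. The means were 100.8 ± 6.2 TPM in shNUP210 and 343.9 ± 2.6 TPM in shCon (SD, n = 2 each), a ratio of 0.293. The log2 fold change was -1.76 (SE 0.11), and 0.631% of all tested genes had a lower one (limma adjusted p = 0.00499). Leaving out shCon replicate 1 or 2 ended the call (adjusted p = 0.0739 and 0.0737), and leaving out either shNUP210 library did not (adjusted p = 0.0350 and 0.0293). Set against the all-gene median, its log2 fold change was -1.995.

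IGF2 encodes insulin-like growth factor 2, a fetal mitogen that signals through the IGF1 and insulin receptors. IGF2 (ENSG00000167244, chromosome 11, 2129112 to 2149603, minus strand) was the most abundant gene of the set, at 521.2 and 499.2 TPM in shNUP210 and 597.2 and 567.0 TPM in shCon. The knockdown values lay just below the controls without overlap, with a log2 fold change of -0.19 (SE 0.08, limma adjusted p = 0.231). After trimmed-mean scaling it was -0.43 (adjusted p = 0.0569). Its exons share 333 bases with the antisense gene IGF2-AS, which was at 2.4 and 1.64 TPM in shNUP210 and 4.75 and 0.83 TPM in shCon. The ratio of DLK1 to IGF2 within a library, which multiplying a library by a single factor does not move, was 0.185 and 0.211 in shNUP210, against 0.579 and 0.603 in shCon. The ratio was lower in both knockdown libraries than in either control, and the difference between the fold changes of DLK1 and IGF2 was not tested.

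H19 is a long noncoding RNA that shares enhancers with IGF2 and is expressed from the opposite parental copy. H19 (ENSG00000130600, chromosome 11, 1995176 to 2001470, minus strand) was at 0.46 TPM in 1 shNUP210 library and listed at 0 in the other, against 0.79 TPM in 1 shCon library and a listed 0 in the other. It reached 1 TPM in no library, short of the 5 TPM in 2 libraries required for testing. It was therefore not tested and no fold is given. MEG3, the maternally expressed noncoding RNA beside DLK1, had no row, and DIO3, another imprinted gene of that domain, was at most at 0.32 TPM.

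CDKN1C encodes p57, a cyclin-dependent kinase inhibitor of the Cip/Kip family that slows entry into the cell cycle. CDKN1C (ENSG00000129757, chromosome 11, 2883213 to 2885773, minus strand) was at 54.9 and 56.6 TPM in both shNUP210 libraries, against 15.6 and 15.7 TPM in the shCon libraries. The groups were far apart and each was tight, with means of 55.8 ± 1.2 TPM in shNUP210 and 15.6 ± 0.064 TPM in shCon, a ratio of 3.57. The log2 fold change was 1.77 (SE 0.18) and exceeded that of 98.4% of tested genes (limma adjusted p = 0.0197). Leaving out any 1 of the 4 libraries ended the call (adjusted p = 0.120 to 0.132). With no expression filter it was 0.0758. Of the other Cip/Kip genes, CDKN1B, encoding p27, was at 54.0 and 47.0 TPM in shNUP210 and 33.9 and 26.8 TPM in shCon (log2 fold change 0.72, adjusted p = 0.113). CDKN1A, encoding p21, was at 2.04 and 1.74 TPM in shNUP210 and 0.72 and 2.06 TPM in shCon and was not tested. The ratio of CDKN1C to CDKN1B within a library was 1.02 and 1.20 in shNUP210, against 0.459 and 0.585 in shCon. The difference between their fold changes was not tested.

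Of 16 tested genes in a list of CDK inhibitors, cyclins and their kinases, 1 was higher, 0 were lower and 15 did not pass, with a median log2 fold change of 0.63. The called gene was CCND1, encoding the G1 cyclin D1, at 493.5 and 390.6 TPM in shNUP210 and 213.1 and 200.3 TPM in shCon (log2 fold change 1.08, SE 0.14, limma adjusted p = 0.0295). Its call was lost when any 1 library was left out, with log2 fold changes of 0.92 to 1.25. The exons of CCND1 share 497 bases with ORAOV1. CDK4, the kinase partner of D-type cyclins, was at 242.8 ± 13.7 TPM in shNUP210 and 272.9 ± 3.0 TPM in shCon (adjusted p = 0.343). CDKN2A, encoding p16 and p14ARF, was at 151.5 ± 19.3 TPM in shNUP210 and 167.3 ± 0.34 TPM in shCon (adjusted p = 0.522).

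PHLDA2, a maternally expressed gene that limits placental growth, starts 43.7 kb from the start of CDKN1C in the same imprinted domain. It was at 19.6 and 17.8 TPM in shNUP210, against 5.28 and 4.70 TPM in shCon, a ratio of 3.74 of the means. The log2 fold change was 1.72 (SE 0.29), just inside the threshold (limma adjusted p = 0.0488). Of 16 alternative settings its call held in 2, and its adjusted p was 0.148 to 0.197 when any 1 library was left out. The ratio of CDKN1C to PHLDA2 was 2.81 and 3.18 in shNUP210 and 2.95 and 3.33 in shCon, so the groups overlapped in it. SLC22A18, a transporter gene that starts 13.9 kb from CDKN1C, was at 10.6 and 5.29 TPM in shNUP210 and 17.1 and 14.8 TPM in shCon (log2 fold change -0.98, adjusted p = 0.194). SLC22A18 is also among the other imprinted genes looked up below. It was not called, and its values lay in the opposite direction to those of CDKN1C and PHLDA2. KCNQ1OT1, the paternally expressed noncoding RNA that silences this domain in cis, was at 0.18 and 0.12 TPM in shNUP210 and 0.07 and 0.1 TPM in shCon. It was not tested. Its annotated transcript is 91667 bases long and TPM are normalised for length, so so low a TPM does not show that the transcript was silent. Within 500 kb of the CDKN1C start, 1 of 5 other tested genes was called, PHLDA2, beside 2.86% of all tested genes.

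**Figure D2:**
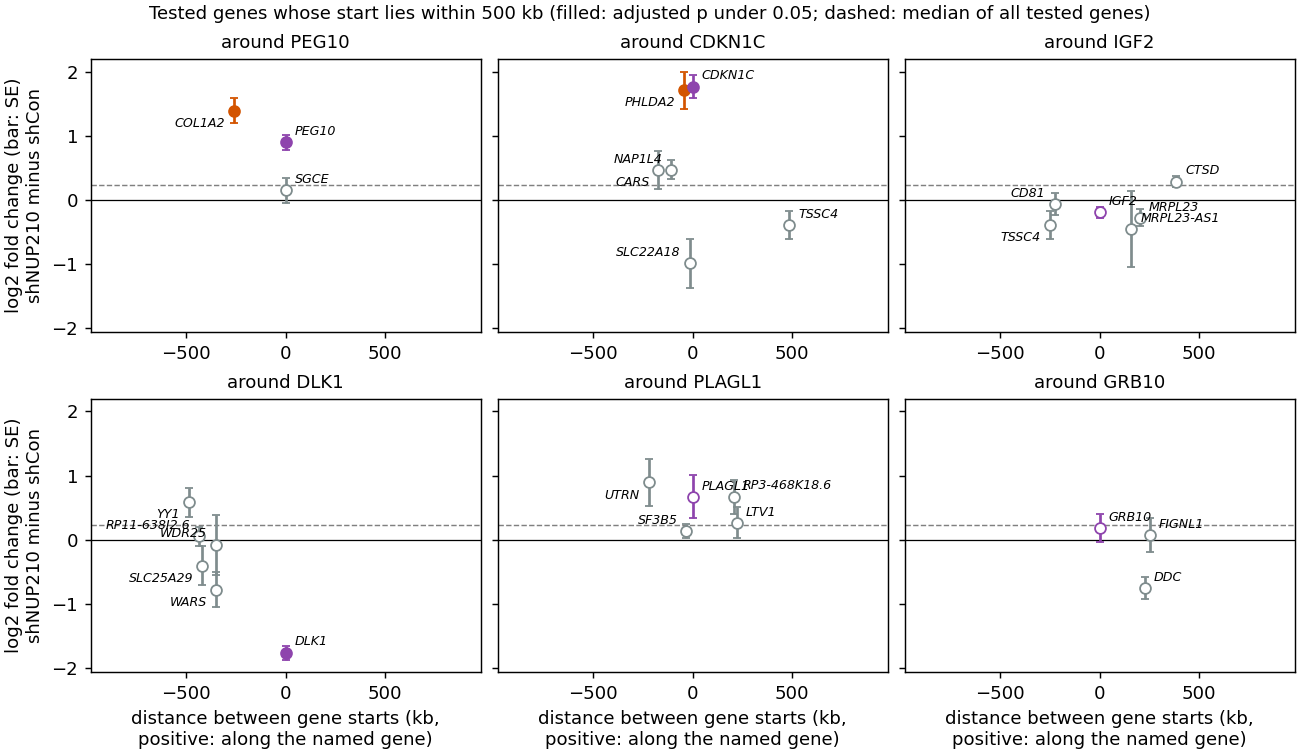
Log2 fold change of every tested gene whose start lies within 500 kb of PEG10, CDKN1C, IGF2, DLK1, PLAGL1 or GRB10, 1 panel each. The horizontal axis gives the distance between starts in kb. Bars are SE, points are filled for adjusted p under 0.05, and the dashed line marks the median of all tested genes. PHLDA2 lies beside CDKN1C at 1.72 and 1.77, COL1A2 lies at 1.40 beside PEG10 at 0.90, and no tested neighbour of DLK1 was called.

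PEG10 derives from a long terminal repeat retrotransposon and encodes gag-like and gag-pol-like proteins that are required in the placenta and overexpressed in many hepatocellular carcinomas. PEG10 (ENSG00000242265, chromosome 7, 94656325 to 94669695, plus strand) was at 366.5 and 359.6 TPM in both shNUP210 libraries, against 177.9 and 210.9 TPM in the shCon libraries. Both knockdown libraries lay above both controls, with means of 363.0 ± 4.9 TPM in shNUP210 and 194.4 ± 23.3 TPM in shCon, a ratio of 1.87. The log2 fold change was 0.90 (SE 0.12), or 0.67 above the median of all tested genes (limma adjusted p = 0.0297). The call depended on the scaling and the libraries: the adjusted p was 0.0630 after trimmed-mean scaling and 0.117 to 0.152 when any 1 library was left out.

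SGCE encodes epsilon-sarcoglycan, a membrane protein of the dystrophin-associated complex, and is transcribed away from PEG10 from nearly the same point. SGCE (ENSG00000127990, chromosome 7, 94524204 to 94656572, minus strand) was at 36.4 and 29.8 TPM in shNUP210 and 30.6 and 28.6 TPM in shCon. The groups overlapped, with a log2 fold change of 0.15 (SE 0.20, limma adjusted p = 0.672) whose sign turned under the 4 other scalings. The gene starts lie 0.2 kb apart and the exons share 219 bases, and without strand information reads there cannot be told apart. The ratio of PEG10 to SGCE within a library was 10.1 and 12.05 in shNUP210, against 5.81 and 7.38 in shCon. The difference between their fold changes was not tested.

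Around this pair COL1A2, a type I collagen gene 261.8 kb upstream of PEG10, rose to 48.8 and 45.2 TPM in shNUP210, against 16.4 and 18.1 TPM in shCon (log2 fold change 1.40, limma adjusted p = 0.0334). It is also one of the fibroblast markers given above, and its call was lost when any 1 library was left out (adjusted p 0.138 to 0.162). Within 500 kb of the PEG10 start, 1 of 2 other tested genes was called, COL1A2, beside 2.86% of all tested genes. PON2, a paraoxonase gene that starts beyond that distance, was at 53.9 and 66.7 TPM in shNUP210 and 36.7 and 25.8 TPM in shCon (adjusted p = 0.0933). Of 7 tested genes that, like PEG10, derive from retroelements, 0 passed the test. Of these FAM127A, now named RTL8C, was at 62.8 and 69.2 TPM in shNUP210 and 47.0 and 46.3 TPM in shCon (adjusted p = 0.139). FAM127B was at 40.2 ± 10.03 TPM in shNUP210 and 42.9 ± 1.3 TPM in shCon, and CCDC8 at 18.5 ± 2.6 TPM in shNUP210 and 16.9 ± 1.5 TPM in shCon. Of 8 tested genes of the dystrophin-associated complex 0 passed, with DAG1, encoding dystroglycan, at 96.6 and 74.0 TPM in shNUP210 and 50.9 and 46.4 TPM in shCon (adjusted p = 0.0842). Of the other abundant genes of that complex, SNTB1, encoding a syntrophin, was at 64.7 ± 2.6 TPM in shNUP210 and 61.0 ± 2.3 TPM in shCon, and UTRN, encoding utrophin, at 26.7 ± 3.2 TPM in shNUP210 and 14.7 ± 7.2 TPM in shCon.

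GRB10 encodes an adaptor protein that binds the insulin and IGF1 receptors and dampens their signal. GRB10 (ENSG00000106070, chromosome 7, 50590063 to 50793462, minus strand) was at 29.9 and 27.5 TPM in shNUP210 and 22.4 and 28.2 TPM in shCon. The groups overlapped, with a log2 fold change of 0.18 (SE 0.21, limma adjusted p = 0.629) whose sign turned under the 4 other scalings. PLAGL1 encodes a zinc finger transcription factor that, in mice, regulates other imprinted genes. PLAGL1 (ENSG00000118495, chromosome 6, 143940300 to 144064599, minus strand) was at 10.7 and 16.1 TPM in shNUP210 and 8.92 and 7.02 TPM in shCon. The shNUP210 values were the higher ones but were spread widely, with a log2 fold change of 0.67 (SE 0.34, limma adjusted p = 0.279). It was 0.94 without shNUP210 replicate 1 and 0.40 without shNUP210 replicate 2.

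Both genes have alternative starts, of which 1 lies in a CpG island known to be methylated on the maternal copy, and gene-level TPM do not separate the starts. Their RefSeq upstream sequences are shown to compare such a start with one of the same gene outside the imprinted island, and that of H19 as the one near-silent gene of the set. Each line gives the 250 bases before a RefSeq start on GRCh38.p14, read on the minus strand, with TGCCGC or its reverse complement GCGGCA in capitals, the hexamer bound when methylated by ZFP57, a factor that maintains imprints. The regions are chr6:144008260-144008509 and chr6:144064600-144064849 for PLAGL1, chr7:50782897-50783146 and chr7:50793454-50793703 for GRB10, and chr11:2001267-2001516 for H19.
PLAGL1, imprinted island: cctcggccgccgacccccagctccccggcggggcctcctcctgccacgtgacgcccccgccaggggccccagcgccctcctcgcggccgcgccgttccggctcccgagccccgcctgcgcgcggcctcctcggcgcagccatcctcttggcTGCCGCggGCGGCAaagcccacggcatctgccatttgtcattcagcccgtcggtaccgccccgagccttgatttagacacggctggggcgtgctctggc
PLAGL1, outermost start: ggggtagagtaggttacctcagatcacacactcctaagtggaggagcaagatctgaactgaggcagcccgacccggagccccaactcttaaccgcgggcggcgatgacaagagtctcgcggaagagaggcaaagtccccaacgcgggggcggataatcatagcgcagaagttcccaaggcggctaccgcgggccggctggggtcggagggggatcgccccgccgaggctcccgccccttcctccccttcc
GRB10, imprinted island: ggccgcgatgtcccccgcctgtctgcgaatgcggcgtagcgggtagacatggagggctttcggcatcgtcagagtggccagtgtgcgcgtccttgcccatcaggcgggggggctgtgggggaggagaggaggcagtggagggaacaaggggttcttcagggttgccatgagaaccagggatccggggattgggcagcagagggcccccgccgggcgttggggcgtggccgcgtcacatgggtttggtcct
GRB10, outermost start: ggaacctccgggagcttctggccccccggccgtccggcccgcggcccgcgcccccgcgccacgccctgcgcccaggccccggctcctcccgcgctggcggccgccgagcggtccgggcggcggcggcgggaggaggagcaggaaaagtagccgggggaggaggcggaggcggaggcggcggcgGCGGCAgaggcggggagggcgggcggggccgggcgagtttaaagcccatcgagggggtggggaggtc
H19: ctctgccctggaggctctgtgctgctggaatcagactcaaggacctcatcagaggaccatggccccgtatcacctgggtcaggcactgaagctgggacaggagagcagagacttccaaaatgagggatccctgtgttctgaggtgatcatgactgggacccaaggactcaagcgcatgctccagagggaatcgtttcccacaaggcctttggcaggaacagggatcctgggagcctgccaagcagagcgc
The PLAGL1 start in the imprinted island held 32 CpG dinucleotides and 2 copies of the hexamer, 1 on each strand, and the outermost PLAGL1 start held 21 and 0. The GRB10 start in the imprinted island held 19 CpG and 0 hexamers, the outermost GRB10 start held 37 CpG and 1 hexamer, and H19 held 4 CpG and 0 hexamers. Of 35116 RefSeq promoter windows of this length 12.7% held the hexamer on either strand, and the median window held 11 CpG. Of the 10 genes, 4 matched the sequence table (MEG3, H19, GRB10 and PLAGL1). DLK1, IGF2, PEG10, SGCE, PEG3 and CDKN1C did not match. The MEG3 windows, not printed here, each held 11 to 13 CpG and 1 hexamer. Further windows, also not printed, held 2 to 40 CpG for GRB10 and 1 to 3 CpG for PLAGL1, with 0 hexamers.

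The order of the levels changed between the groups. In shNUP210 libraries it was IGF2, PEG10, DLK1, CDKN1C, then SGCE and GRB10, whose ranges overlapped, then PLAGL1 and H19. In shCon libraries it was IGF2, DLK1, PEG10, then SGCE and GRB10, whose nearest libraries were at 28.6 and 28.2 TPM, then CDKN1C, PLAGL1 and H19. The ratio of PEG10 to DLK1 was 3.80 and 3.42 in shNUP210, against 0.515 and 0.617 in shCon. DLK1 was 1.76 and 1.86 times CDKN1C in shNUP210 libraries, against 22.2 and 21.8 times in shCon libraries. Both ratios pair genes called in opposite directions above, so their separation follows from those calls and is no separate result. The ratios of DLK1 to IGF2, PEG10 to SGCE and CDKN1C to CDKN1B each hold a called gene from the same libraries. They are no separate results either.

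**Figure D3:**
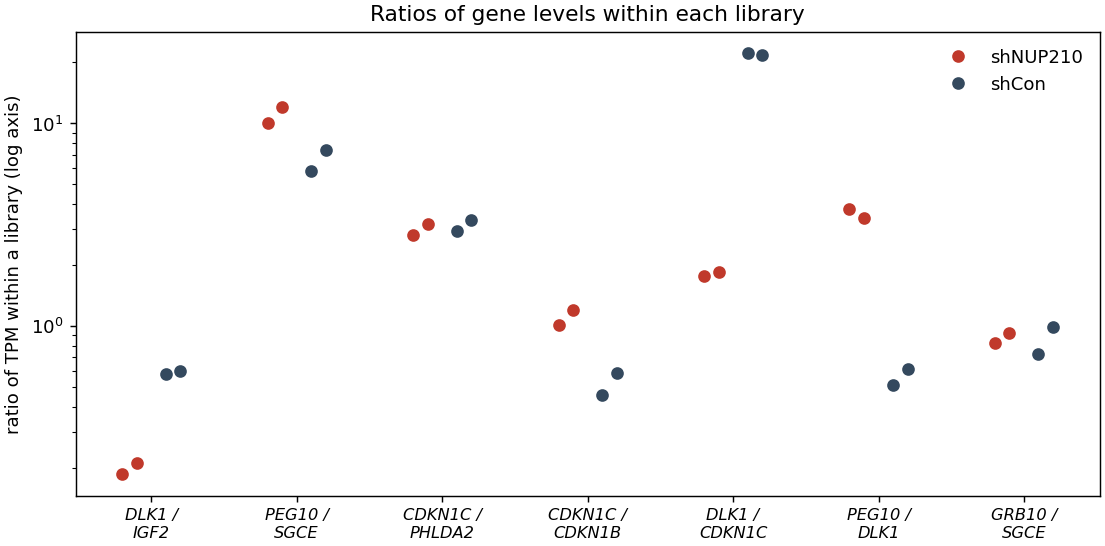
Ratios of TPM between gene pairs within each library (logarithmic axis, points for libraries, shNUP210 left of shCon). PEG10 over DLK1 is higher and DLK1 over CDKN1C lower in both shNUP210 libraries, while CDKN1C over PHLDA2 and GRB10 over SGCE overlap between the groups.

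The genes that receive, bind or translate the IGF2 signal were examined as a list of 27 genes, of which 20 were tested, 0 were higher, 1 was lower and 19 did not pass (median log2 fold change 0.27). The gene called was IGFBP2, a binding protein that sequesters IGFs, at 21.9 and 21.02 TPM in shNUP210, against 67.1 and 71.1 TPM in shCon (log2 fold change -1.64, SE 0.17, limma adjusted p = 0.0196). Leaving out any 1 of the 4 libraries ended the call (adjusted p = 0.0973 to 0.134). IGF1R, the main signalling receptor for IGF2, was at 18.8 and 23.9 TPM in shNUP210 and 7.06 and 8.93 TPM in shCon (adjusted p = 0.0734). IGF2R, which clears IGF2 and is itself imprinted in mice, was at 32.7 and 33.2 TPM in shNUP210 and 23.4 and 24.8 TPM in shCon (adjusted p = 0.225). IGF1, the other IGF ligand, did not exceed 0.42 TPM in any library. IGF2BP1, an oncofetal protein that binds IGF2 messenger RNA, was at 58.0 and 77.1 TPM in shNUP210 and 53.3 and 38.3 TPM in shCon (adjusted p = 0.222). GRB2, an adaptor of receptor tyrosine kinases, was at 152.3 ± 1.0 TPM in shNUP210 and 132.9 ± 31.8 TPM in shCon and did not pass.

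Around DLK1, 9 genes of the Notch pathway were tested, and 1 was higher, 0 were lower and 8 did not pass (median log2 fold change 0.35). JAG1, a canonical Notch ligand, was at 81.6 and 83.1 TPM in shNUP210, against 37.0 and 33.4 TPM in shCon (log2 fold change 1.20, SE 0.15, limma adjusted p = 0.0296). Its call was lost when any 1 library was left out, with log2 fold changes of 1.13 to 1.28. A second row with the symbol JAG1 was at 3.71 and 2.22 TPM in shNUP210 and listed at 0 in both shCon libraries. That row was not tested. The Notch target HES1 was at 28.3 and 18.7 TPM in shNUP210 and 19.8 and 17.3 TPM in shCon (adjusted p = 0.539). HES4, another gene of that family, was at 41.7 ± 11.1 TPM in shNUP210 and 38.7 ± 3.3 TPM in shCon (adjusted p = 0.857). ADAM10, a protease that cleaves Notch receptors, was at 54.7 ± 6.9 TPM in shNUP210 and 30.8 ± 10.2 TPM in shCon (adjusted p = 0.143). DLK2, the closest relative of DLK1, was at 2.04 and 0.76 TPM in shNUP210 and 4.2 and 0.79 TPM in shCon and was not tested. Within 500 kb of the DLK1 start 0 of 5 other tested genes were called, the nearest 349 kb away, beside 2.86% of all tested genes called.

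Of 51 other imprinted genes looked up, 27 had a row, and 12 rows were tested, with 1 higher (PHLDA2), 0 lower and 11 that did not pass. Their median log2 fold change was 0.29, against 0.23 for all tested genes. MEST, a paternally expressed hydrolase-like gene, was at 62.1 and 57.8 TPM in shNUP210 and 36.2 and 31.0 TPM in shCon (log2 fold change 0.82, limma adjusted p = 0.0721). GNAS, encoding the stimulatory G protein alpha subunit and imprinted in some tissues, was at 925.8 and 884.9 TPM in shNUP210 and 728.7 and 678.8 TPM in shCon (adjusted p = 0.0747). DDC, encoding an aromatic amino acid decarboxylase and lying 228 kb from the GRB10 start, was at 32.4 and 32.19 TPM in shNUP210 and 57.8 and 52.6 TPM in shCon (adjusted p = 0.0752). NAA60, an acetyltransferase gene, had 2 rows with fold changes of opposite sign (0.57 and -0.44), neither called. These genes lay in both directions. The groups did not overlap in MEST, GNAS or DDC, but neither did they in 57.3% of all tested genes, so that separation alone says little.

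**Figure D4:**
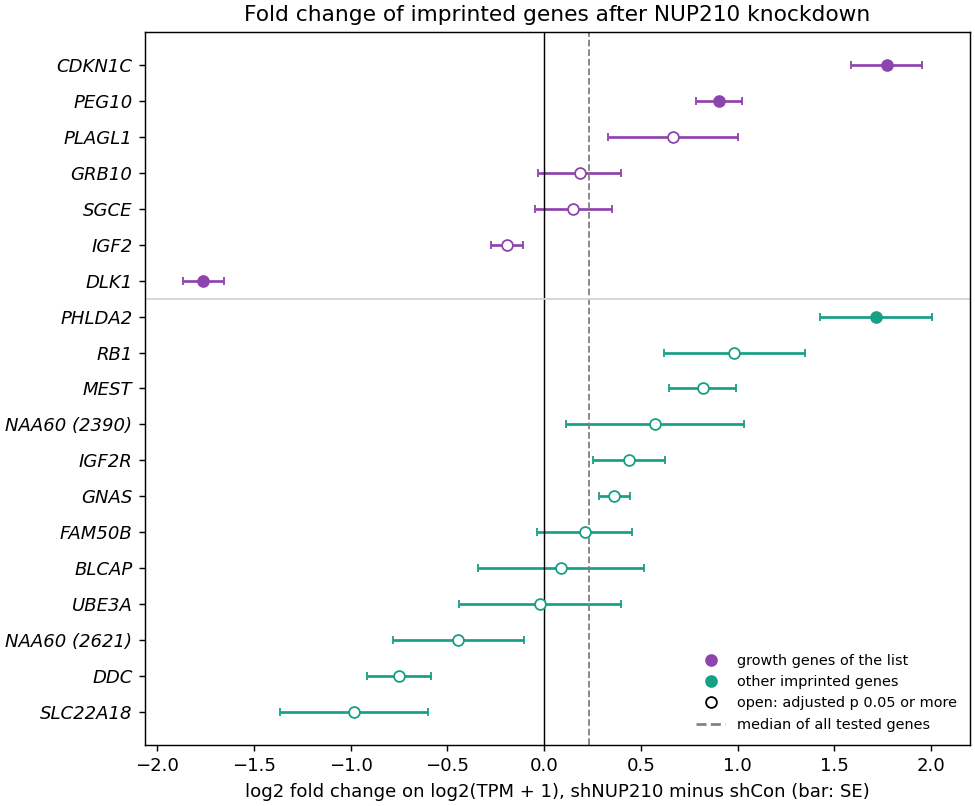
Log2 fold change (shNUP210 minus shCon, on log2(TPM + 1), bars for SE) of the 7 tested growth genes above the grey line and of 12 rows of other imprinted genes below it, filled where the adjusted p was under 0.05. CDKN1C (1.77), PEG10 (0.90), DLK1 (-1.76) and PHLDA2 (1.72) are filled, and the dashed line marks the median of all tested genes (0.23).

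Factors that write or keep imprints did not pass the test in any of 10 tested cases (0 higher, 0 lower, median log2 fold change 0.30). Beside 2.86% of all tested genes called, 0 of 10 says little about these factors. TRIM28, the corepressor recruited to imprinted regions by ZFP57, was the most abundant at 702.2 and 681.0 TPM in shNUP210 and 637.4 and 604.3 TPM in shCon (limma adjusted p = 0.281). DNMT1, the maintenance DNA methyltransferase, was at 70.8 and 113.8 TPM in shNUP210 and 56.4 and 81.9 TPM in shCon (adjusted p = 0.433). UHRF1, which brings DNMT1 to replicating DNA, was at 46.8 and 40.9 TPM in shNUP210 and 30.8 and 27.2 TPM in shCon (adjusted p = 0.146). ZFP57 itself did not exceed 1 TPM. Of the PLAG factors and the PEG3 partners SIAH1, SIAH2 and TRAF2, 4 genes were tested and 0 passed. PLAGL2, a paralog of PLAGL1, was at 12.7 and 14.9 TPM in shNUP210 and 8.74 and 10.1 TPM in shCon (adjusted p = 0.319). TRAF2 was at 36.1 ± 3.6 TPM in shNUP210 and 33.9 ± 4.9 TPM in shCon, and SIAH2 at 19.4 ± 9.8 TPM in shNUP210 and 23.8 ± 10.8 TPM in shCon.

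Over all these related lists, the neighbours of the loci included, 106 genes other than the growth genes themselves were tested, with 4 higher and 1 lower. That is 4.72% called, beside 2.86% of all tested genes. The direction of small changes depended on the scaling. After trimmed-mean scaling, which sets the median of all genes near 0 (+0.0069), the log2 fold change was -2.004 for DLK1, 1.54 for CDKN1C, 0.66 for PEG10, 0.45 for PLAGL1, -0.05 for GRB10, -0.09 for SGCE and -0.43 for IGF2. DLK1 and CDKN1C were called under all 5 scalings, and PEG10 under 3 of them.

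**Figure D5:**
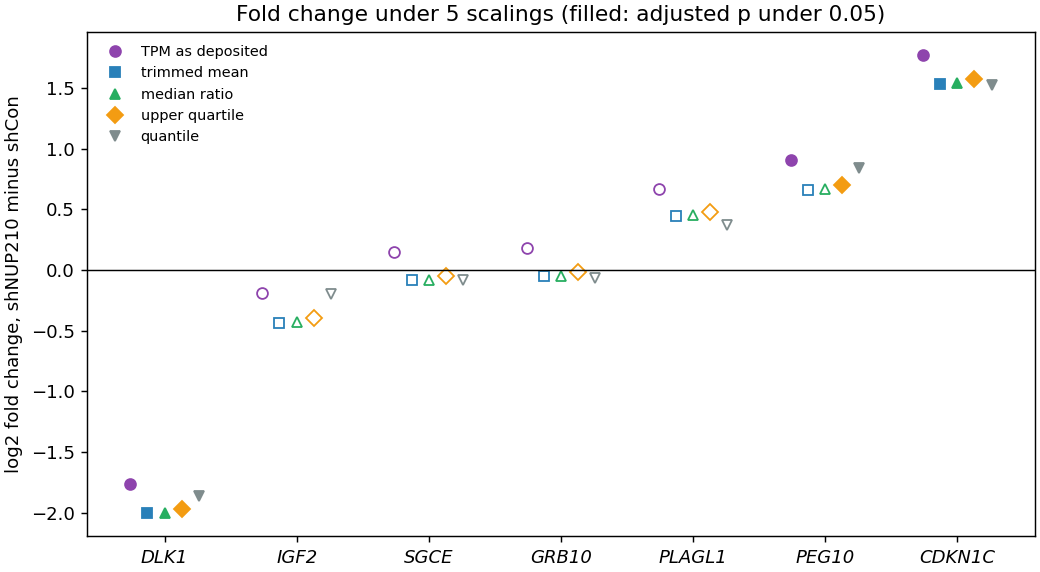
Log2 fold change (shNUP210 minus shCon) of the 7 tested genes in TPM as deposited and after 4 other scalings, with filled points where the adjusted p was under 0.05. DLK1 and CDKN1C stay filled throughout, PEG10 is filled under 3 of 5, and GRB10 and SGCE move from just above 0 to just below it.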

How the data were processed

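Per the labels' protocols, total RNA of the Huh7 cells was isolated using Trizol, and an Illumina TruSeq RNA kit was used for sequencing libraries. The authors deposited 1 table of TPM per library, with values per library that sum to 999993 to 999998. Trimmomatic, STAR, RSEM and DESeq with hg38 are named in the submitters' processing notes, without versions or roles. The authors' annotation was not given in the sources used. TPM keep no read depth, so no counting intervals are given, and a listed 0 may be a failed estimate.

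Libraries were grouped by title. The test was the moderated linear model of limma 3.58.1 in R 4.3.3, fitted with a trend of variance on mean to log2(TPM + 1) of genes with at least 5 TPM in 2 libraries, with two-sided p-values adjusted by Benjamini-Hochberg over all 10140 genes and a threshold of 0.05. Fold changes on this scale understate those of low genes. The smallest two-sided p that permutation of 2 against 2 libraries allows is 0.33, so none was run. The script was tested on simulated data. Replicates were not copies: of the tested genes, 15 and 18 had identical values in the 2 libraries of a group. Positions and exon overlaps come from GENCODE release 29 on GRCh38. Genes named are all members, NUP210, and, of each related list, called genes and the 3 most abundant (of neighbours, called and overlapping genes). Other genes named, such as CDKN1A, CDKN1B, IGF1, IGF1R, IGF2R, HES1, DLK2, DIO3, PON2, DDC, SLC22A18, KCNQ1OT1 and ZFP57, were chosen after their values were seen. Alternatives were 4 scalings, other filters and pseudocounts, other variance settings, a replicate block and each library left out. The members, lists, filter and test were chosen with earlier results of these data known.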

Additional observations from a re-analysis of the deposited data

How the results depend on the processing

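Leaving out each library in turn gave 4 to 27 called genes in place of 290, 0 to 1 of the 7 tested growth genes in place of 3, and 0 of the related genes in place of 5. The log2 fold changes then ranged from -1.82 to -1.70 for DLK1, 1.75 to 1.79 for CDKN1C and 0.78 to 1.02 for PEG10. With 1 library left in a group, that library is assumed to vary like the other group. With no filter there were 14 calls, 1 growth gene (DLK1) and 0 related genes, while requiring 1 TPM in 2 libraries gave 57 calls and 1 related gene. With no trend of variance on mean, 0 genes were called by limma (2290 at an unadjusted p under 0.05), 0 growth genes and 0 related genes, with DLK1 still at -1.76, CDKN1C at 1.77 and PEG10 at 0.90, since filters and variance models do not alter a fold. Quantile normalization left 3 related genes. PEG10 was not called after trimmed-mean (0.66) or median-ratio scaling (0.66), nor under either filter named here (0.90), and CDKN1C was not called without a filter (1.77). The sign turned for SGCE (-0.086 trimmed mean, -0.0816 median ratio, -0.0499 upper quartile, -0.0821 quantile) and GRB10 (-0.0508, -0.0464, -0.0148 and -0.0639, in the same order), neither of them called. After trimmed-mean scaling 78 genes were called higher and 250 lower, against 181 and 109 in TPM as deposited.

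The replicate numbers of the titles were not shown to pair the libraries: the differences between replicates 1 and 2 correlated at 0.0231 between the groups over 10140 genes. With a replicate block there were 63 calls, with 1 growth gene (DLK1) and 1 related gene, while CDKN1C (1.77, adjusted p = 0.0533) and PEG10 (0.90, adjusted p = 0.0592) were not called. TPM do not show how many reads lie behind a value, which matters most for genes near 5 TPM such as PHLDA2 and PLAGL1.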
